A study of Rattus norvegicus with 4 samples.

Results

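Endothelial cells line blood vessels, and mural cells, the pericytes and smooth muscle cells, wrap them. The genes described here are 9 endothelial genes (Pecam1, Cdh5, Kdr, Flt1, Tek, Tie1, Vwf, Cldn5 and Esam) and 1 smooth muscle gene (Tagln), followed through every array probe whose single gene symbol is one of these names. Of the 10 listed genes 9 had a probe, out of 12111 gene symbols on the whole array, and Cdh5 had none. The 9 genes had 16 probes, of which 14 could be read. The remaining 2, the probe of Cldn5 and 1 of 2 probes of Tie1, lie in a stretch of the array where names and values could not be joined with certainty and were left out.

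The RNA came from neurons of the rat vestibular ganglion, which carry balance signals from the inner ear, cut out with a laser from sections stained by immunofluorescence for the calcium-binding protein calretinin. The series' design text gives positive cells as calyceal afferents and negative cells as dimorphic or bouton ones, and the comparison asks how their transcripts differ. Each pool of total RNA was hybridised to 1-colour Cy5 arrays, 2 arrays titled positive and 2 titled negative. The descriptions of the negative samples carry the wording for positive cells, so groups follow the titles, and the arrays are called positive and negative by title. The labels name no treatment, strain or age, and how many animals a pool holds is not known here. Nothing says that the 2 arrays of a group came from separate animals or pools, so every p-value measures only the spread between these arrays, which may be technical.

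The vascular endothelium is held together by adhesion proteins at cell contacts, among them the products of Pecam1, Cdh5, Esam and Cldn5. Its growth is steered by receptor tyrosine kinases of 2 families, the receptors for vascular endothelial growth factors (Kdr and Flt1) and the receptors Tek and Tie1 of the angiopoietin system. Vwf encodes von Willebrand factor, the carrier and platelet-tethering protein that endothelial cells store and secrete. Tagln encodes transgelin, an actin-binding protein of contractile cells. In a sensory ganglion, capillaries run between the neuron bodies, and none of these genes is regarded as a neuronal marker.

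Deposited values are intensities on a linear scale with array medians of 0.9896 to 0.99155. A probe was tested when its mean log2 value over the 4 arrays reached the 40th percentile, an intensity of 0.456, and dimmer probes are given by level alone. Calb2, the calretinin gene used to pick the cells, had 309 ± 26.0 (SD, n = 2) on the positive and 134 ± 6.67 on the negative arrays, so its transcript went with the titles but was abundant in both. Values in the late part of the table were read 5 rows below the listed ID. Across 373 late probes that shared an accession with an early probe, mean levels correlated at r = 0.361 on this reading and at -0.192 at their own rows; these are probes, not independent replicates. For the log2 change the correlation was weaker, 0.147 on this reading and -0.0923 at their own rows. In 4 successive stretches of these rows it was 0.248, 0.0475, 0.347 and 0.0364 on this reading. The second stretch holds Pecam1 probe 254091, Tek probe 220035 and Flt1 probe 222064. There the correlation was 0.0494 and 0.0583 read 6 and 8 rows later. In the last stretch it was 0.116 read 8 rows later, so this reading stood out for the change in neither. Neighbouring rows came near it in the other stretches, with 0.221 read 4 rows later in the first and 0.284 read 6 rows later in the third. The vascular readings of Pecam1, Tek, Vwf and the 2 brighter Flt1 probes rest on the shift by 5 rows, while Esam, Tagln, Kdr and the read Tie1 probe do not. The Calb2 reading rests on it too, so this check of the titles is not independent of the shift.

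Of these genes, 5 had lower signal on the positive than on the negative arrays: Vwf, Pecam1, Esam, Tek and Tagln, by 2.58-fold to 4.78-fold. Flt1 had 2 probes above the limit that moved in opposite directions. Kdr and the read probe of Tie1 stayed below the limit on every array. Which cells gave these signals was not tested. If they were vascular, fewer such cells and less RNA per cell cannot be told apart in these pooled samples.

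**Figure D1:**
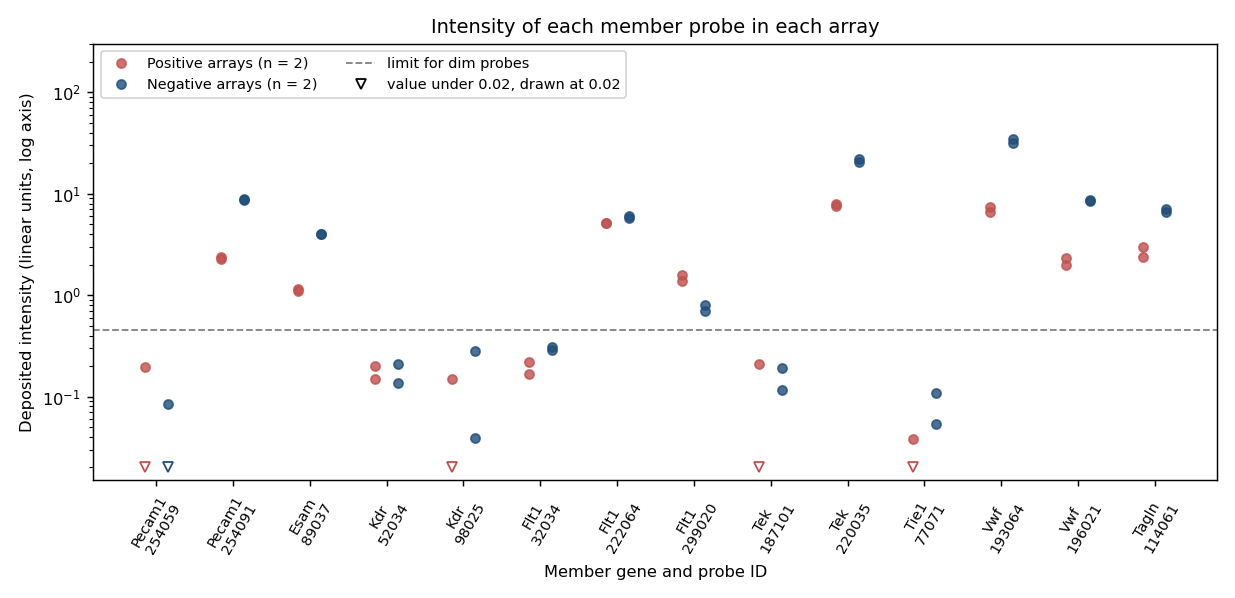
Deposited intensity (log axis) of the 14 member probes that could be read, in the 2 positive and 2 negative arrays, with the limit for dim probes (0.456) as a dashed line. For Pecam1 probe 254091, Esam, Tek probe 220035, both Vwf probes and Tagln the positive points lie well below the negative ones, while 6 probes lie below the limit in all arrays.

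Among the adhesion genes, Pecam1 encodes the immunoglobulin-family protein CD31 at endothelial contacts. Its probe 254091 had intensities of 2.35 and 2.25 on the positive arrays and 8.79 and 8.66 on the negative arrays. The groups were far apart, and the positive arrays were lower by a log2 change of -1.92 ± 0.07 (SE), a 3.79-fold difference (adjusted p = 3.89e-08, limma, Benjamini-Hochberg over 21070 probes). The other Pecam1 probe, 254059, gave -0.0087 and 0.194 on the positive and 0.0848 and -0.0078 on the negative arrays, all under the limit, with overlapping groups. Esam encodes an endothelial cell adhesion molecule of the tight junction region. Its single probe had 1.098 and 1.16 on the positive and 4.02 and 4.04 on the negative arrays, again without overlap and with the replicates close together. The log2 change was -1.83 ± 0.09 (SE), 3.57-fold lower (adjusted p = 1.71e-07, limma). Its probe lies in the early part, so this fall does not depend on the moved reading.

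Vwf had 2 probes for different sequence records, and they moved alike. Probe 193064 had 6.55 and 7.42 on the positive and 31.98 and 34.7 on the negative arrays. Probe 196021 had 1.97 and 2.34 on the positive and 8.57 and 8.65 on the negative arrays. On each probe both positive arrays lay below both negative ones, and the spread within a group was small beside the gap. The log2 changes were -2.26 ± 0.08 and -2.01 ± 0.09 (SE), 4.78-fold and 4.01-fold lower (adjusted p = 3.57e-08 and 1.27e-07, limma). The 95% intervals of these changes, -2.44 to -2.07 and -2.21 to -1.80, overlapped.

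Of the angiopoietin receptors, Tek encodes TIE2, which binds the angiopoietins. Probe 220035 of Tek had 7.53 and 7.84 on the positive and 20.7 and 22.3 on the negative arrays. The groups did not overlap, and the log2 change was -1.48 ± 0.07 (SE), 2.80-fold lower (adjusted p = 1.59e-07, limma). Its other probe, 187101, had 0.211 and 0.0052 on the positive and 0.192 and 0.116 on the negative arrays, under the limit and overlapping. Tie1 encodes a related receptor that pairs with TIE2. It had 0.0379 and -0.0266 on the positive and 0.108 and 0.0537 on the negative arrays at probe 77071. These values lie near the floor of the arrays and carry no fold.

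The receptors for vascular endothelial growth factor were the family in which members and probes differed. Flt1 encodes VEGFR1, which binds the factor tightly and also occurs as a soluble decoy, and Kdr encodes VEGFR2, the main signalling receptor. Probe 222064 of Flt1 had 5.12 and 5.18 on the positive and 6.04 and 5.72 on the negative arrays. The groups were separate but close, with a log2 change of -0.19 ± 0.07 (SE) and an adjusted p of 0.0351 (limma). This call is not firm: without the first positive, the second positive or the first negative array the adjusted p was 0.0987, 0.0716 and 0.167, and without a variance trend 0.0722. Probe 299020 of Flt1 had 1.37 and 1.59 on the positive and 0.805 and 0.705 on the negative arrays, higher on the positive arrays by 0.97 ± 0.14 (SE) on the log2 scale (adjusted p = 0.000261, limma). The remaining Flt1 probe, 32034, had 0.165 and 0.218 on the positive and 0.307 and 0.289 on the negative arrays, under the limit. Which part of the Flt1 transcript each probe covers is not known here. Kdr had 0.149 and 0.2 on the positive and 0.211 and 0.137 on the negative arrays at probe 52034. At probe 98025 Kdr had 0.147 and 6e-04 on the positive and 0.0392 and 0.283 on the negative arrays. Both Kdr probes were dim, and their groups overlapped.

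Promoter windows are shown for the 3 receptor genes with a read probe that the sequence table held. Their read probes run from a measured signal (Flt1) to none above the limit (Kdr, Tie1). The other Tie1 probe was left out, so the level of Tie1 is not settled. The sequences are from RefSeq on the GRCr8 build, 250 bases before to 50 after the annotated start. Flt1 lies at chr12:12333180-12333479 on the plus strand, Kdr at chr14:32571813-32572112 on the plus strand and Tie1 at chr5:137304932-137305231 on the minus strand. Capitals mark the letters CNGGAAG, a longer form of the GGAA core of ETS-family factors, on either strand.
Flt1: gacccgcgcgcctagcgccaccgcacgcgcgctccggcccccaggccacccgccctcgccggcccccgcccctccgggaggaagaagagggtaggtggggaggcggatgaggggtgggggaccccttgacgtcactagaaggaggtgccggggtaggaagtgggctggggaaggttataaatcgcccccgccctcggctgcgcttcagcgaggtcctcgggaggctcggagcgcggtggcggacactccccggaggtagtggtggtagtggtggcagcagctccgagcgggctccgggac
Kdr: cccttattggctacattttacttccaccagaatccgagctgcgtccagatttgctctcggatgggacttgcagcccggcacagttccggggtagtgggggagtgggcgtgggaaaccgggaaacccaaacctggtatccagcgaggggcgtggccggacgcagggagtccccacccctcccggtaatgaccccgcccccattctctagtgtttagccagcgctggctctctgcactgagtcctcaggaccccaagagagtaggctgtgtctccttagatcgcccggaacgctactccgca
Tie1: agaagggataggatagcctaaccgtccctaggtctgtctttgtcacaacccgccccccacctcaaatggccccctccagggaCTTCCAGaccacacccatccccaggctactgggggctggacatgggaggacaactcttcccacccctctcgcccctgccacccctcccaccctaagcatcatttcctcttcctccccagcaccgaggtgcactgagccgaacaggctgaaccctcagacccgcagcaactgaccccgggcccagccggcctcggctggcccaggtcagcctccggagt
The letters CNGGAAG occurred once in the Tie1 window and were not in those of Flt1 and Kdr. Of 33469 windows of this length 30.8% held them. The shorter letters GGAA, which the Flt1 and Kdr windows do hold, were not searched. The letters AGATAA, a longer form of the GATA core, were searched on both strands too. So was the CArG box, the core of the serum response element of contractile genes. Neither was in any of these 3 windows, against 11.6% and 1.64% of all windows. These are letter matches in a short window and no more. Of the 10 genes 4 had a window; the others, Pecam1, Cdh5, Tek, Vwf, Esam and Tagln, had none to show.

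Tagln was the mural gene of the set. It had 2.97 and 2.37 on the positive and 6.56 and 7.13 on the negative arrays. The groups did not overlap, although the replicates lay further apart than those of Esam, and the log2 change was -1.37 ± 0.11 (SE), 2.58-fold lower (adjusted p = 3.76e-06, limma). Its probe is in the early part of the array.

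Taking each gene by its brightest read probe, 6 of 8 read genes were tested. All 6 were called lower, 5 of them at least 2-fold. Flt1 is among the 6 through probe 222064, whose call is not firm, while its probe 299020 was called higher. Over all 21070 tested probes 64.2% were called, 23.6% lower and 40.6% higher, and 7.07% were at least 2-fold lower and 8.28% at least 2-fold higher. Among 8172 named genes taken by their brightest probe, 21.3% were called lower and 45.3% higher. By probe, 8 of 14 passed the limit, 7 were called lower and 1 higher, with a median log2 change of -1.66 against 0.11 over all tested probes. Quantile normalization moved that overall median to 0.01 and cyclic loess to -0.01, with 28.7% and 32.2% of probes called lower (33.0% and 31.7% higher). The 6 genes were called lower under both. When the probes of a gene were averaged, dim ones included, 3 of the genes were called lower in place of 6. Both arrays of the positive group lay below both negative ones on 7 of the 8 tested probes, against 31.9% of all tested probes, and above them on 1, against 49.8%.

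**Figure D2:**
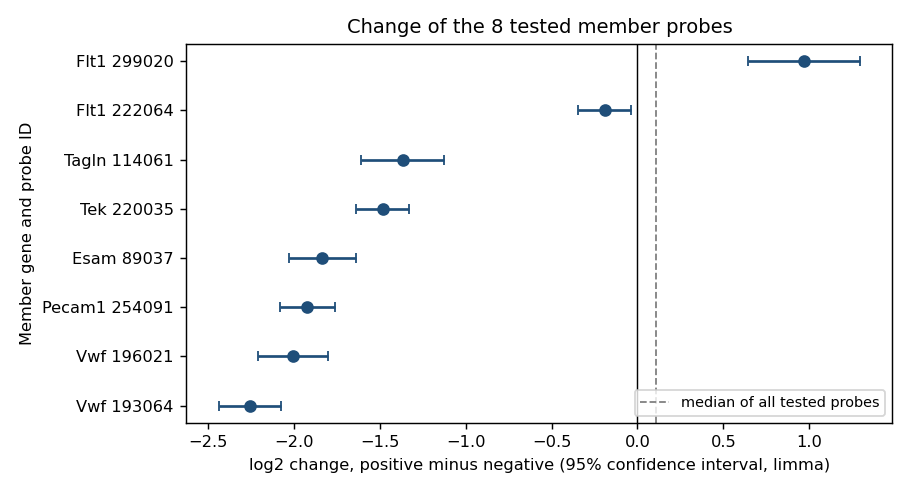
Change in log2 intensity, positive minus negative, of the 8 tested member probes with 95% confidence intervals from limma. The dashed line is the median of all tested probes (0.11). The points of Vwf, Pecam1, Esam, Tek and Tagln lie between -2.26 and -1.37, and the 2 Flt1 probes fall on either side of 0, at -0.19 and 0.97.

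Other vascular genes were read from 5 lists of 143 genes, 80 of which were tested by their brightest probe. Of these, 39 were called lower on the positive arrays and 20 higher, and 21 did not pass. Among the 8172 named genes 21.3% were called lower and 45.3% higher. The median log2 change of the 80 genes was -0.25, against 0.17 over the named genes. For Kcnj8 and Synpo2 1 group lay under the limit; without them, a count added after the values were seen, 38 of 78 were lower and 19 higher. Averaging the probes of a gene gave 24 lower. The 108 genes read summed to intensities of 1848 and 1867 on the positive and 2073 and 2008 on the negative arrays. The list sums did not all go this way. Other endothelial genes gave 198 and 196 on the positive against 152 and 154 on the negative arrays. Junction and transport genes gave 611 and 617 against 599 and 555. The angiogenic, mural and basement membrane sums were lower on the positive arrays.

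Among angiogenic signalling genes 9 of 19 tested were lower and 4 higher, beside 21.3% and 45.3% of named genes. The median log2 change was -0.29. The Notch ligand gene Dll4, a gene of sprouting tip cells and arteries, had 0.547 and 0.62 on the positive and 3.16 and 2.98 on the negative arrays (log2 change -2.40). The receptor gene Notch1 had 1.097 and 1.088 against 3.599 and 3.603 (-1.72). Vegfb, a growth factor that binds VEGFR1, went the other way, with 3.01 and 3.11 against 0.795 and 0.803 (1.94), and its second probe rose as well (0.68). For Vegfa, the ligand of both receptors, 2 probes were called in opposite directions, like those of Flt1: the brighter had a log2 change of 0.92 and the dimmer one -0.54.

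Of the other endothelial genes 10 of 21 tested were lower and 5 higher, beside 21.3% and 45.3% of named genes. The median was -0.11. Icam2, an endothelial ligand of leukocyte integrins, had 1.46 and 1.25 on the positive and 6.55 and 6.45 on the negative arrays (log2 change -2.26). Cd93, a surface receptor of endothelium and myeloid cells, fell by 1.56 on the log2 scale. The transcription factor genes Gata2 and Erg, active in endothelium, had log2 changes of -1.56 and -1.19. The higher genes included regulators of clotting. Thbd, which encodes thrombomodulin, had 6.52 and 7.21 on the positive and 1.16 and 1.04 on the negative arrays (2.64), although its second probe did not pass (0.10). Tfpi, the tissue factor inhibitor, had 89.2 and 86.1 against 36.2 and 39.0 (1.22), and Icam1, an inducible adhesion molecule, rose by 1.32 on the log2 scale. The endothelial genes did not all move one way.

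Of 14 tested junction and transport genes 5 were lower and 6 higher, beside 21.3% and 45.3% of named genes, with a median of 0.000341. The glucose transporter gene Slc2a1, abundant in barrier endothelium but not only there, had 22.8 and 23.5 on the positive and 60.2 and 66.7 on the negative arrays (log2 change -1.45). Mfsd2a, a lipid transporter of barrier endothelium, had 1.450 and 1.496 against 3.93 and 3.63 (-1.36). Alpl, alkaline phosphatase, rose from 13.4 and 16.4 on the negative to 51.4 and 58.6 on the positive arrays (1.89).

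Of 18 tested mural genes 11 were lower and 4 higher, beside 21.3% and 45.3% of named genes, with a median of -0.53. Of the 16 with both groups above the limit 10 were lower and 3 higher, with the same median. Abcc9, the sulfonylurea receptor subunit of the pericyte potassium channel, had 0.515 and 0.495 on the positive and 6.55 and 6.36 on the negative arrays (log2 change -3.68). Kcnj8 encodes the pore that pairs with it. It had 0.0724 and 0.164, under the limit, on the positive and 6.85 and 6.11 on the negative arrays, and is given no fold; its second probe, dimmer on average than the limit, ran the other way, with 0.888 and 0.880 against 0.119 and 0.0088. Ppp1r14a, an inhibitor of myosin phosphatase in smooth muscle that is also found in oligodendrocytes, had 8.51 and 9.25 against 49.8 and 47.8 (-2.46). Cspg4, which encodes the pericyte proteoglycan NG2 and also marks oligodendrocyte precursors, had 5.03 and 4.996 against 14.9 and 16.3 (-1.63). Synpo2, an actin-binding protein gene, had 1.60 and 1.56 on the positive arrays and 0.197 and 0.101, under the limit, on the negative ones. Acta2, the smooth muscle actin gene, read 0.0891 ± 0.0540 on the positive and 0.147 ± 0.144 on the negative arrays (SD, n = 2), under the limit in both groups.

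Of 8 tested basement membrane genes 4 were lower and 1 higher, beside 21.3% and 45.3% of named genes, with a median of -0.25. Col4a1, a chain of collagen IV, had 14.8 and 15.6 on the positive and 27.8 and 27.6 on the negative arrays (log2 change -0.87).

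**Figure D3:**
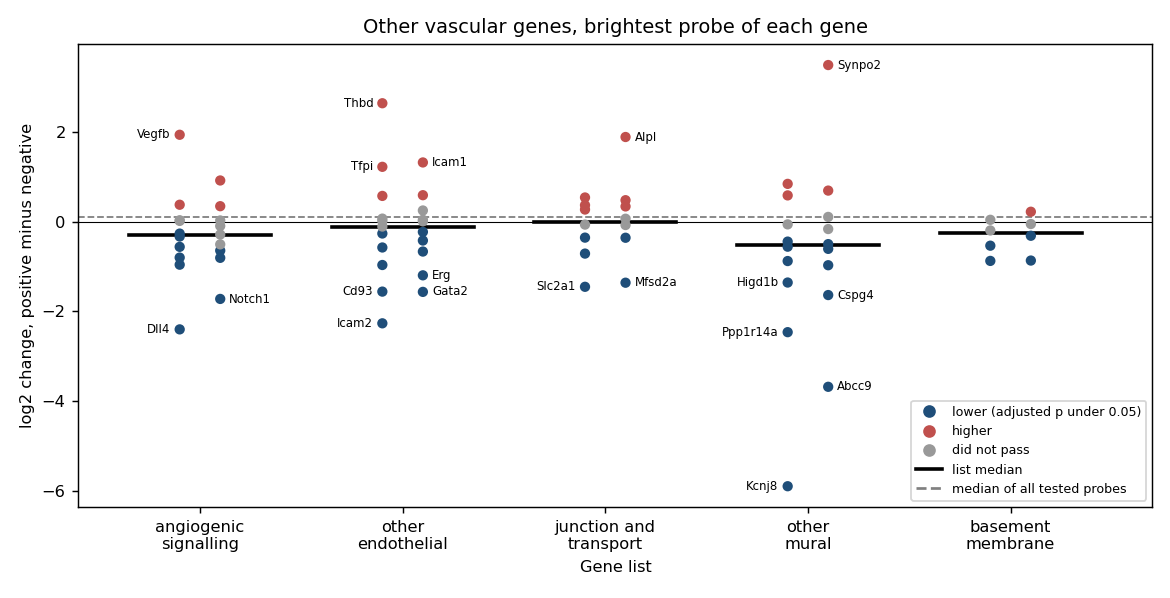
Change in log2 intensity, positive minus negative, of the tested genes in 5 lists of other vascular genes; blue points were called lower, red higher, and grey did not pass, with bars at the list medians. The medians run from -0.53 for mural genes to 0.000341 for junction and transport genes, and every list holds genes called in each direction.

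Markers of other cells differed between the same arrays. All 6 tested markers of myelin and glia were lower on the positive arrays, with a median of -4.22. The 8 read markers of that list summed to 10.03 and 11.42 on the positive and 189 and 196 on the negative arrays, and Mag and Erbb3 lay under the limit in both groups. Mog, a central myelin gene, had 0.985 and 1.01 against 42.0 and 43.8 (log2 change -5.42). Of 5 tested erythroid and platelet genes 4 were lower and none higher, with summed intensities of 12.5 and 12.1 against 25.4 and 26.6. Alas2, the erythroid haem synthesis gene, had 6.40 and 5.97 against 15.2 and 16.1 (-1.34), and Hba-a2 was under the limit in both groups.

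Of 6 leukocyte and macrophage genes 1 was lower and 3 higher, with sums of 95.6 and 98.5 against 148 and 157. Csf1r had 48.0 and 52.5 against 109 and 121 (log2 change -1.20), and Cd68 rose by 0.43 on the log2 scale. Of 7 neuron genes 5 were higher and 1 lower, with sums of 980 and 1002 against 916 and 929; the neurofilament gene Nefh rose (1.62) and Prph fell (-1.01). Of 8 fibroblast and meningeal genes 4 were higher and 2 lower, with sums of 263 and 260 against 157 and 167; Upk1b rose (2.64) and Dcn fell (-0.97). Msln, one of the 4, was under the limit on the negative arrays; without it 3 of 7 were higher and the median was 0.11 in place of 0.54. These counts stand beside 21.3% lower and 45.3% higher among named genes. The part of glial, blood or stromal cells in the vascular differences was not tested.

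**Figure D4:**
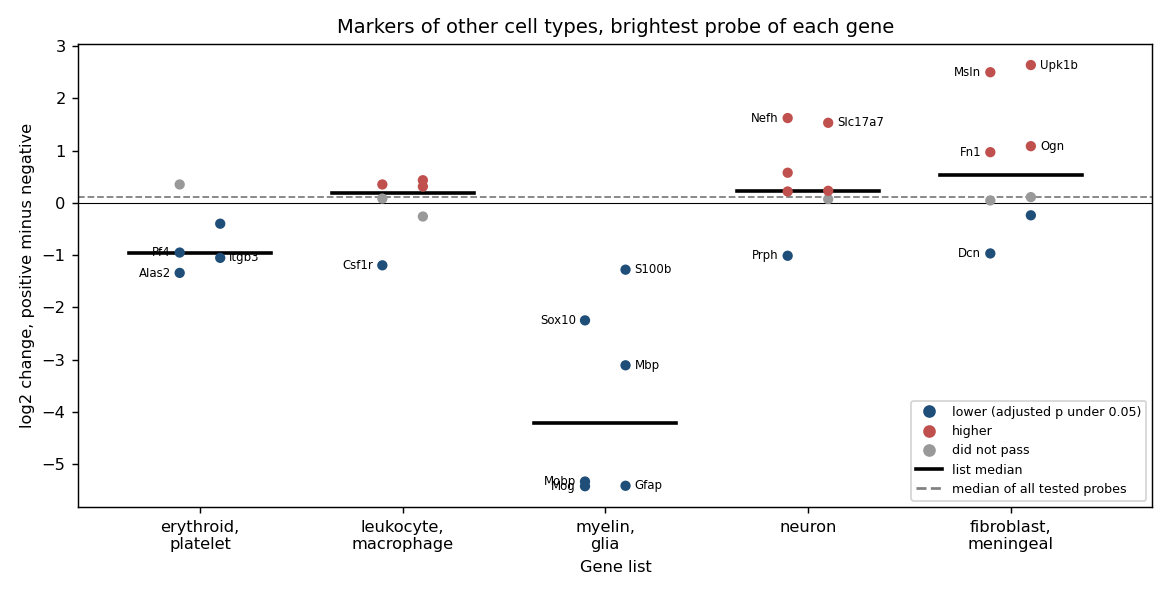
Change in log2 intensity, positive minus negative, of tested markers of other cell types, with bars at the list medians. All myelin and glia points lie at -1.28 or below, while the median of the neuron list is 0.23 and that of the fibroblast and meningeal list 0.54, or 0.11 without Msln.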

How the data were processed

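The authors deposited 1 table of probe intensities on a linear scale for 4 arrays. How these were scanned, background-corrected, normalized or centred by gene is not stated in the labels or the table; medians near 0.99 on every array look like a scaling to the median of each array. Entries of -9999 were taken as missing. Of 35126 probes 16677 had 1 gene symbol in the platform annotation, 163 several and 18286 none. A RefSeq table (GRCr8) gave the current symbol by gene ID for 16649 of those with 1. IDs up to 144112 were read at their own row and those from 185001 on at the value 5 rows later; 2010 named probes between were left out. Missing values and those below the 1st percentile of an array's positive values were raised to it before log2.

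All probes that reached the 40th percentile were tested in 1 fit with limma 3.58.1 in R 4.3.3 (trended variance, two-sided; Benjamini-Hochberg over 21070 probes, threshold 0.05). The smallest p from permuting 2 against 2 arrays is 0.333. The members, gene lists and rules were chosen with earlier results of these data known. All members are named; from each other vascular list up to 4 genes per direction with the smallest p and at least a 2-fold change, or else the 1 with the smallest p; and from each list of other cells 1 per direction. Vegfa, Mag, Erbb3, Hba-a2, Acta2, Rgs4, Rgs5, Anpep and Tpm1 were added later, with their values known. Tested on simulated arrays (21070 probes, 66 of them changed at each size), the fit found 18.2%, 66.7% and 98.5% of log2 changes sized 0.5, 1 and 2. There 198 probes were changed in all, while 13530 were called on the real arrays, so these shares do not describe the real fit. Alternatives were a replicate block, 2 normalizations, other filters, floors and variance priors, missing values left missing, each array left out, every value at its own row, and means over probes. Figures were drawn with matplotlib 3.10.9.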

Additional observations from a re-analysis of the deposited data

How the results depend on the processing

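Apart from the reading of every value at its own row, 115 of 119 values of the 8 tested member probes over 15 settings kept direction and call. The other 4 were those of Flt1 probe 222064, which lost its call without a variance trend (log2 change -0.19, adjusted p = 0.0722, limma) and without either positive array or the first negative one (-0.23 to -0.15 over the 4 arrays left out in turn). All 399 values of 27 other named genes kept both, but a pseudocount of 0.5 took Abcc9 from -3.68 to -2.79, Dll4 from -2.40 to -1.72 and Erg from -1.19 to -0.73, under 2-fold; Kcnj8 and Synpo2, with 1 group under the limit, moved further. These genes were chosen by small p on the same arrays. The 15 settings include the reading of the first IDs between the parts at their own row. That reading leaves the fit unchanged, so the values it adds to both counts could not change. Leaving out an array, with the lone one taken to vary as the complete group does, gave 12262 to 12764 calls in place of 13530. With the replicate block 13711 probes were called, and 6 member genes and 40 listed vascular genes were lower; deviations of arrays with the same number were unrelated (r = 0.000556), so no pairing is assumed.

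Averaging the probes of a gene, dim ones included, with the filter and the adjustment repeated over genes, left 3 member genes and 24 listed vascular genes lower. With every late value at its own row, where levels of shared accessions correlated at -0.192, 35 listed genes were higher, and these log2 changes reversed: Flt1 probe 222064 0.98, Vwf probe 196021 0.0844, Abcc9 0.66, Erg 0.39, Gata2 0.88 and Mfsd2a 1.10. Icam1 lost its call (0.11, adjusted p = 0.213, limma), Tek probe 220035 moved to -0.28 and Ppp1r14a to -0.49, and Pecam1 probe 254091, Flt1 probe 299020, Vwf probe 193064 and Slc2a1 did not pass the filter there. Reading the first IDs between the parts at their own row, chosen after seeing the data, gave 44 listed genes lower. The cause of these differences was not tested.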

Other observations

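The probes of Cldn5 and of Tie1 that were not read lie in the first rows of the stretch between the parts. There, 59 probes that share an accession with an early probe had levels correlated at r = 0.562 at their own rows and 0.0146 read 5 rows later, as probes that are not independent replicates. For their log2 changes the own rows did not stand out, with r = 0.180 there, 0.264 read 6 rows later and 0.195 read 2 rows earlier. At its own row, the Cldn5 probe, for the main tight junction claudin of brain endothelium, had 31.8 and 33.5 on the positive and 120.6 and 117.9 on the negative arrays. The Tie1 probe 148002 had 1.97 and 1.84 on the positive and 15.3 and 16.2 on the negative arrays. On this reading, chosen after the values were seen, 8 member genes were called lower. The other Tie1 probe, which cites the same accession, was near the floor on every array, so the Tie1 level is not settled.

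Probes of a single gene often differed. Among 15 listed vascular genes with at least 2 tested probes, 7 had the same call on all of them, 7 were called on some and 1, Vegfa, had opposite calls. The 2 member genes with at least 2 tested probes were Vwf, called lower on both, and Flt1, with opposite calls.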
